A study of Homo sapiens with 15 samples.

Results

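The dual-specificity MAPK phosphatases described here are 10 genes, DUSP1, DUSP2, DUSP4, DUSP5, DUSP6, DUSP7, DUSP8, DUSP10, DUSP14 and DUSP16, which were taken by their symbols from a table of 58219 human genes. Every one of the 10 was found, and all 10 were among the 17599 genes that passed the filter on low counts. Their mRNA was measured by RNA-seq in 15 libraries of BEAS-2B, an immortalized line of human bronchial epithelial cells grown on collagen in serum-free medium. Each of 5 conditions had 3 independent experiments of this one line. In the 24-h protocol, cells received PM2.5 at 1 or 30 µg/cm2, or vehicle control. PM2.5 is fine particulate matter collected on filters from the air of Beijing. In the repeated protocol, cells received PM2.5 daily at 1 µg/cm2, or vehicle control, with a wash between exposures. The sample descriptions give 7 daily treatments, whereas the methods of the study give 6 with collection on day 7.

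Mitogen-activated protein kinases (MAPKs) are switched on when a threonine and a tyrosine of their activation loop are phosphorylated, and dual-specificity phosphatases remove both phosphates. Several of these phosphatases are themselves transcribed when the kinase ERK is active, so their mRNA forms part of a negative feedback loop. Family members differ in where they act and on which kinase. DUSP1, DUSP2, DUSP4 and DUSP5 are inducible nuclear enzymes, DUSP6 and DUSP7 are cytoplasmic and prefer ERK, DUSP8, DUSP10 and DUSP16 prefer the stress kinases JNK and p38, and DUSP14 is a small atypical member that lacks the kinase-binding domain.

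Libraries held 21460981 to 34724765 reads counted on genes, with a median of 29243177. Levels are given as CPM, counts per 1000000 counts on tested genes, after TMM normalization. A count of 3, taken as the floor, was worth 0.0864 to 0.140 per 1000000 counts on all genes, without TMM normalization. This floor covers counting error only. All 7 epithelial markers examined were present in every library, the lowest being TP63 at 12.9 CPM, while the club cell marker SCGB1A1 had no count in any library. The mesenchymal genes VIM and FN1 were also expressed, at no less than 146.5 CPM for VIM and 351.8 CPM for FN1. The leukocyte gene PTPRC and the endothelial genes PECAM1 and CDH5 reached at most 0.211 CPM, and the leukocyte marker CD3E at most 0.231 CPM, but CD14 was read at 2.30 to 23.4 CPM. Epithelial markers moved with the exposure. The sum of the 7 was 2004 to 2522 CPM in the 24-h controls, 1718 to 2606 with 1 µg/cm2 and 843 to 1309 with 30 µg/cm2, where all 7 means were lower than in the control. It was 2270 to 2785 CPM in the controls of the repeated protocol and 1411 to 1561 after daily PM2.5, where 6 of 7 means were lower. KRT5, a basal cell keratin, had means of 748 and 136 CPM in the 24-h control and with 30 µg/cm2, and 917 and 482 CPM in the repeated protocol. The sum of 6 mesenchymal genes was 1729 to 2890 CPM in the 24-h controls, 1644 to 2639 with 30 µg/cm2, 924 to 1020 in the controls of the repeated protocol and 604 to 631 after daily PM2.5. The part of these shifts in the results on the phosphatases was not tested.

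One of the 24-h experiments stood apart from the others, and this touches most results on these genes. In the vehicle control of experiment 2, DUSP6 was at 0.0820 times the mean of the controls of experiments 1 and 3. In the same control DUSP2, from 2 reads, was at 0.193 times, DUSP4 at 0.222 times and DUSP5 at 0.230 times. Over all 17599 tested genes the median of this ratio was 0.988. Among 14 genes known as outputs or feedback regulators of ERK signalling, 13 were lower than 0.5 times the value in both other controls, against 6.59% of all tested genes, and the median ratio of the 14 was 0.208. None of the 10 MAP kinase genes was that low. The treated libraries of experiment 2 departed too. With 1 µg/cm2, 9 of the 14 ERK genes were lower than 0.5 times both other experiments, beside 11.5% of all tested genes. With 30 µg/cm2 this was so for 4 of the 14, beside 9.07% of all tested genes. Mitochondrial genes took 4.13 to 4.40% of the counts in the 3 libraries of experiment 2 and 2.76 to 3.42% in the other 6 libraries at 24 h, and their part in the results was not tested. What set experiment 2 apart was not tested, and results on the 10 members that rest on it are given within each experiment. Fits without its libraries hold only experiments 1 and 3 at 24 h. As experiment 2 was seen to differ in these same genes, calls in those fits are not independent support.

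DUSP1 was the most abundant of the 10 transcripts in 4 of the 5 conditions. To compare genes, CPM was divided by exon length in kilobases, and DUSP1 then reached 82.3 ± 18.2 (SD, n = 3) in the 24-h vehicle control, or 66.0% of the sum over all 10 genes. DUSP4 followed at 16.2 ± 9.83, DUSP5 at 11.7 ± 7.07, DUSP7 at 7.93 ± 2.45 and DUSP6 at 3.79 ± 2.93 CPM per kb. Ranges of DUSP4, DUSP5 and DUSP7 overlapped in this condition, so their order is not separated by the spread. DUSP10 was at 1.45 ± 0.102 CPM per kb, and DUSP14, DUSP16, DUSP2 and DUSP8 were each below 1 on average.

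The order was different at 24 h with 30 µg/cm2. DUSP5 then had the highest mean, at 54.9 ± 26.9 CPM per kb, above DUSP1 at 39.3 ± 7.96, although in experiment 2 DUSP1 (30.3) remained above DUSP5 (24.0). DUSP2, at 0.185 ± 0.118 CPM per kb in the vehicle control, was at 14.7 and 16.3 in experiments 1 and 3, above DUSP6 (13.1 and 13.2) and DUSP4 (12.3 and 12.9). In experiment 2 it was at 1.36 CPM per kb, below DUSP4 (9.49), DUSP7 (6.78) and DUSP6 (6.48). The per-length sum of all 10 genes was 162 and 173 in experiments 1 and 3, where the controls had 144 and 152, and 80.4 in experiment 2, where the control had 77.9. With 1 µg/cm2 for 24 h the sum was 67.8 to 70.5 in the 3 experiments.

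**Figure D1:**
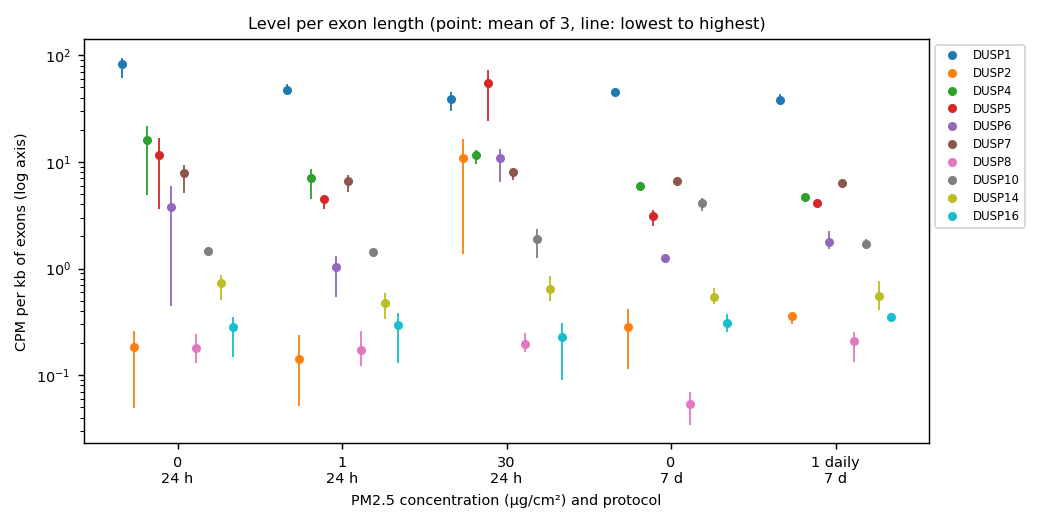
Levels of the 10 genes per exon length (CPM per kb, log axis) in the 5 conditions, with the mean of 3 libraries as a point and the lowest to highest library as a line. DUSP1 is the highest point except at 30 µg/cm2 for 24 h, where DUSP5 has a mean of 54.9 and DUSP1 of 39.3 CPM per kb.

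Upstream sequences (the 250 bases before the start site) were found in RefSeq tables of build GRCh38.p14 for 8 of the 10 genes, with 2 start sites for DUSP10. DUSP4 and DUSP5 had no entry in that table. The deposited gene table starts some genes farther upstream. All 250 bases of the DUSP6 region, 87 of the first DUSP10 region and 60 of the DUSP14 region are thus exon bases there. In the DUSP2 region 55 bases belong there to exons of another gene, as DUSP2 itself does not reach into it. The windows searched also held a short stretch after the start site, in which none of these 8 genes had a motif named below. The cAMP response element core TGACGT was searched on both strands. It was in 7.98% of 35116 such windows and in 2 of these 8 genes, DUSP1 and DUSP8. Both sequences are shown because these are the genes with this core, and because DUSP1 was the most abundant member and DUSP8 among the least abundant. DUSP1 is on the minus strand with its region at chr5:172771196-172771445, and DUSP8 is on the minus strand with its region at chr11:1572272-1572521. Capitals mark TGACGT or its reverse complement ACGTCA, which overlap in TGACGTCA, the E-box CACGTG, and GCGTG, the core of the element bound by the aryl hydrocarbon receptor.
DUSP1: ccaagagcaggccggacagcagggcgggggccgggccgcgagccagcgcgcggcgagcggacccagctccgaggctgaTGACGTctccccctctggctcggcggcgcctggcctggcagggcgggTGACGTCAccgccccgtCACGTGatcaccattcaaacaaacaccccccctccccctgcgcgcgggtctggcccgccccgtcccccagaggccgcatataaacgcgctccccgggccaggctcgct
DUSP8: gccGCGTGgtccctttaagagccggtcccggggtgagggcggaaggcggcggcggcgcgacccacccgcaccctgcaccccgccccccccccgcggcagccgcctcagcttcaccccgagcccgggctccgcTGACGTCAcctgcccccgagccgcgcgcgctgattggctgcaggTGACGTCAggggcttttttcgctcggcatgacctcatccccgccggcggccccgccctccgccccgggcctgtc
In DUSP1 the core began 172 and 125 bases before the start, and the E-box 108 bases before it. In DUSP8 it began 118 and 74 bases before the start, each time as the full palindrome. The AP-1 motif TGACTCA was in none of the 9 regions, against 4.95% of all regions, which says only that these letters are not in these windows. GCGTG was found in DUSP6, DUSP8, DUSP10 and DUSP14, against 36.5% of all regions, and CACGTG in DUSP1 and DUSP2, against 7.26%.

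The first comparison asked what a single 24-h exposure at 30 µg/cm2 did to these genes. Of the nuclear inducible members, DUSP2 and DUSP5 rose and DUSP1 fell, and the other 7 genes did not pass the test. Genes were called where the adjusted p-value was below 0.05 and the log2 fold-change was 0.6 or more in either direction. Thus 3 of 10 members were called, where 8.07% of all tested genes were called. The median log2 fold-change of the 10 members was 0.06, beside 0.03 over all tested genes.

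DUSP2 (ENSG00000158050.4, chr2:96143166-96145440, GRCh38), a nuclear phosphatase best known from activated leukocytes, was nearly silent in the vehicle controls, at 0.482, 0.0942 and 0.496 CPM in experiments 1, 2 and 3. After 30 µg/cm2 it was at 28.4, 2.64 and 31.6 CPM. Every treated library was above every control, and experiment 2 was low on both sides. In bulk RNA, more cells that express a gene and more RNA per cell cannot be told apart. The log2 fold-change was 5.78 (edgeR adjusted p = 0.000633, SE 0.84). The control of experiment 2 held only 2 reads of DUSP2, so its ratio of 28.0 has a 95% counting interval of 7.49 to 235, while the ratio was 59.0 in experiment 1 and 63.6 in experiment 3.

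DUSP5 (ENSG00000138166.5, chr10:110497838-110511544), a nuclear phosphatase that acts on ERK, was at 37.9, 9.42 and 44.1 CPM in the controls and at 177, 62.7 and 191 CPM after 30 µg/cm2. The groups did not overlap, and the ratios within experiments were 4.67, 6.66 and 4.33. The log2 fold-change was 2.23 (adjusted p = 0.00774, SE 0.47).

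DUSP1 (ENSG00000120129.5, chr5:172768090-172771195), the immediate early phosphatase of ERK, JNK and p38, moved the other way. It was at 183, 124 and 192 CPM in the controls and at 85.5, 61.2 and 91.5 CPM after 30 µg/cm2. All treated libraries were below all controls, and the treated to control ratio was 0.467, 0.493 and 0.478, so experiment 2 did not differ from the others here. The log2 fold-change was -1.07 (adjusted p = 0.00222, SE 0.18). Fitting the libraries of these 2 groups alone ended the calls of DUSP1 (adjusted p = 0.0672) and DUSP5 (adjusted p = 0.123).

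DUSP6 (ENSG00000139318.7, chr12:89347232-89353271), the cytoplasmic ERK phosphatase, was at 23.0, 2.07 and 27.5 CPM in the controls and at 60.7, 30.0 and 61.2 CPM after 30 µg/cm2. The groups did not overlap, but DUSP6 missed the test at a log2 fold-change of 1.52 (adjusted p = 0.135, SE 0.60). With the experiment as a block the log2 fold-change was 1.85 and passed (adjusted p = 0.0016), in a fit that called 15.2% of all genes. Ratios within the experiments were 2.64, 14.5 and 2.22. Opposite-strand exons of an unnamed gene cover 1875 bases, or 40.5%, of the DUSP6 exons, and that gene had at most 5 counts in a library. The strand setting is not given, so this low count does not show that the DUSP6 level, also per exon length, was unaffected.

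DUSP4 (ENSG00000120875.8, chr8:29333064-29350668), a nuclear phosphatase of ERK and JNK, took opposite directions in the experiments. It was at 158, 35.2 and 159 CPM in the controls and at 89.4, 68.8 and 93.7 CPM after 30 µg/cm2, which gave ratios of 0.566 and 0.588 in experiments 1 and 3 and 1.96 in experiment 2. The pooled log2 fold-change was -0.49 (adjusted p = 0.517, SE 0.40). Without the 24-h libraries of experiment 2 it was -0.80 (adjusted p = 1.52e-06), where 19.3% of all genes were called. That fit leaves out the experiment in which DUSP4 rose, so it is no separate evidence of a fall. Without the control of experiment 2 alone the log2 fold-change was -0.92 (adjusted p = 0.0215). This fit kept the treated library of experiment 2, at 68.8 CPM, without its own control, and the fall was larger than within any experiment.

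The remaining 5 members did not pass. DUSP7 (ENSG00000164086.9, chr3:52048919-52056550), the second cytoplasmic ERK phosphatase, had a log2 fold-change of 0.01 (95% interval -0.44 to 0.46) and was at 28.9 to 53.4 CPM in controls and 38.3 to 49.6 CPM after treatment. Of the stress kinase phosphatases, DUSP10 (ENSG00000143507.17, chr1:221701424-221742176) had 0.37 (-0.08 to 0.82), DUSP8 (ENSG00000184545.10, chr11:1554044-1571920) had 0.11 (-0.73 to 0.95) and DUSP16 (ENSG00000111266.8, chr12:12474210-12562383) had -0.33 (-1.33 to 0.67). DUSP14 (ENSG00000276023.4, chr17:37489831-37513501) had -0.19 (-0.88 to 0.50). DUSP10 passed without the 24-h libraries of experiment 2, at 0.65 (adjusted p = 0.00668), where 19.3% of all genes were called, and its ratios were 1.66, 0.797 and 1.48 in experiments 1, 2 and 3. In all, 4 of the 10 members had groups that did not overlap, beside 22.8% of all tested genes.

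**Figure D2:**
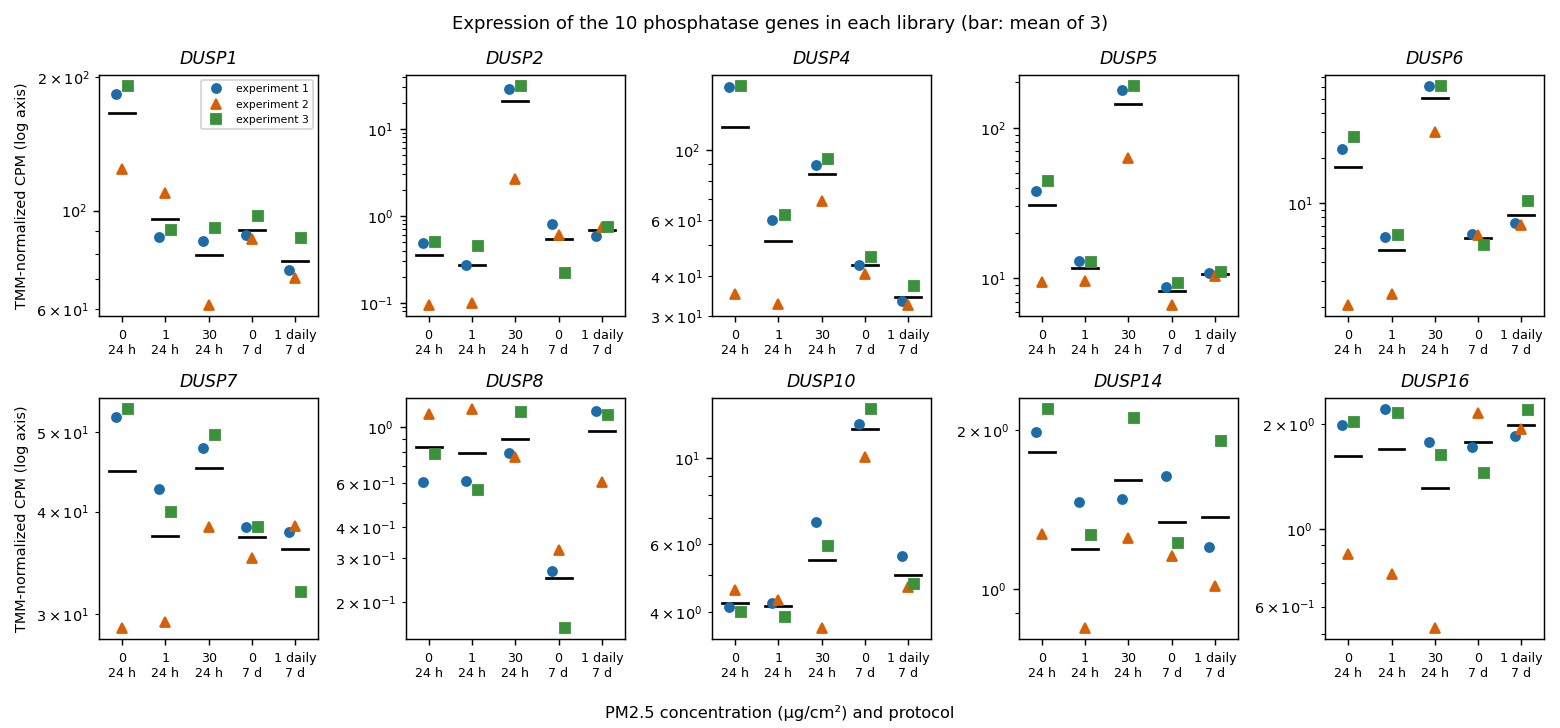
TMM-normalized CPM (log axis, a separate scale in each panel) of each gene in the 15 libraries, by PM2.5 concentration and protocol, with a symbol for each experiment and a bar at the mean of 3. DUSP2 and DUSP5 are above all other libraries at 30 µg/cm2, and the triangles of 24-h experiment 2 are low for DUSP4, DUSP5 and DUSP6 in the control.

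After a single exposure to 1 µg/cm2 for 24 h, no member was called, where 0.0625% of all tested genes were called. By an unadjusted p-value under 0.05, 4 of the 10 members passed, DUSP1, DUSP4, DUSP5 and DUSP6, beside 3.03% of all tested genes. All 4 had lower means than the control, but for DUSP4, DUSP5 and DUSP6 the difference lay in experiments 1 and 3, and the ratio of DUSP1 in experiment 2 was 0.886. The 24-h controls are the same libraries as in the comparison above.

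DUSP6 was at 5.88, 2.48 and 6.08 CPM with 1 µg/cm2, which was 0.255 and 0.221 times the control in experiments 1 and 3 and 1.20 times in experiment 2. Its log2 fold-change was -1.86 (adjusted p = 1, SE 0.62). DUSP5 was at 12.9, 9.52 and 12.9 CPM, with ratios of 0.341, 1.01 and 0.292 and a log2 fold-change of -1.37 (SE 0.46). For DUSP4 the values were 59.9, 32.7 and 62.2 CPM, the ratios 0.379, 0.929 and 0.390, and the log2 fold-change -1.19 (SE 0.40). In each of these genes experiments 1 and 3 gave values close to each other, and experiment 2 gave a ratio between 0.929 and 1.20.

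DUSP1 was at 87.1, 110 and 90.6 CPM with 1 µg/cm2, below every control library. Its ratios were 0.476, 0.886 and 0.473, and the log2 fold-change was -0.80 (adjusted p = 0.395, SE 0.18). It was the only member whose groups did not overlap, beside 4.44% of all tested genes. DESeq2 called DUSP1 here (adjusted p = 0.0309), as did edgeR's likelihood ratio test (adjusted p = 0.0397), and they called 0.222% and 0.193% of all genes. Without the 24-h libraries of experiment 2, DUSP1, DUSP4, DUSP5 and DUSP6 were called, with log2 fold-changes of -1.06, -1.37, -1.65 and -2.07, where 2.15% of all genes were called. Without the control of experiment 2 alone, DUSP1, DUSP4 and DUSP6 were called, at -0.97, -1.62 and -2.38, among 55 of all tested genes. That fit kept the treated library of experiment 2 without its own control. For DUSP4 and DUSP6 this library was low, at 32.7 and 2.48 CPM. Their falls in that fit were larger than within any experiment (log2 ratios -1.40, -0.11 and -1.36 for DUSP4, and -1.97, 0.26 and -2.18 for DUSP6). In the fit of all libraries the other 6 members ranged from -0.61 (DUSP14) to 0.07 (DUSP16).

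**Figure D3:**
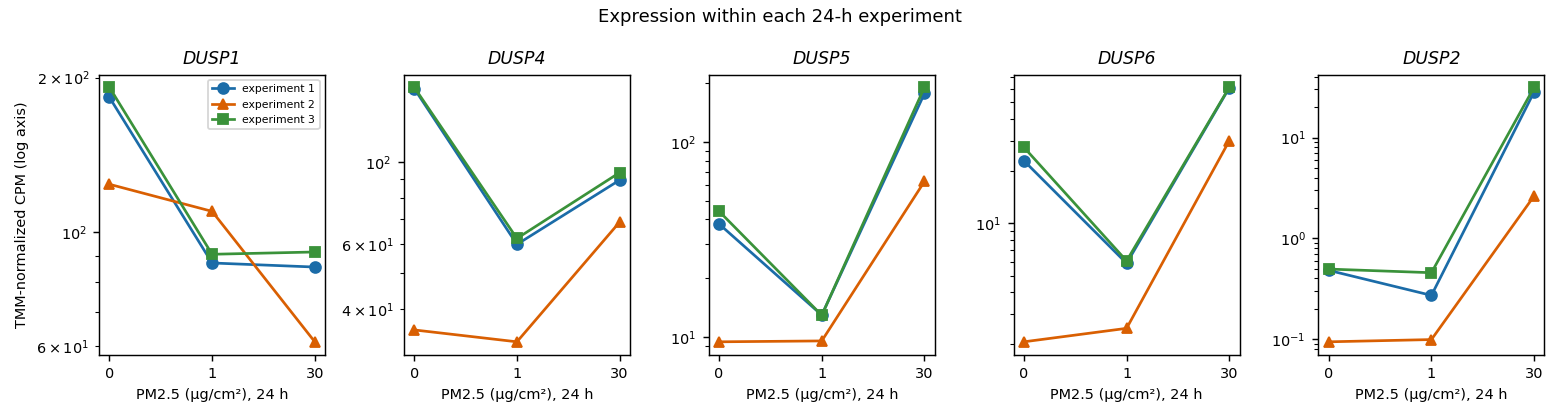
TMM-normalized CPM (log axis) of DUSP1, DUSP4, DUSP5, DUSP6 and DUSP2 at 24 h with 0, 1 and 30 µg/cm2, with a line for each experiment. In experiments 1 and 3 DUSP4, DUSP5 and DUSP6 are lower at 1 µg/cm2 than at 0 and higher again at 30 µg/cm2, while in experiment 2 DUSP5 and DUSP6 are near their control at 1 µg/cm2, with ratios of 1.01 and 1.20.

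Set directly against each other, the 2 concentrations at 24 h differed in 3 members, all higher with 30 µg/cm2, where 7.84% of all tested genes were called and 3.62% were called higher. DUSP2 had a log2 fold-change of 6.15 (adjusted p = 0.000688, SE 0.86), DUSP5 of 3.60 (adjusted p = 0.000637, SE 0.50) and DUSP6 of 3.38 (adjusted p = 0.00537, SE 0.65). The ratio of DUSP6 was 10.3, 12.1 and 10.1 in the 3 experiments, so experiment 2 gave a similar ratio here although it was low at both concentrations. DUSP5 was 13.7, 6.59 and 14.8 times higher. DUSP2 was 104 and 69.1 times higher in experiments 1 and 3, and in experiment 2, where 2 reads were counted at 1 µg/cm2, the ratio was 26.6 (95% counting interval 7.11 to 223). In the fit of these 2 groups alone DUSP2 missed the threshold (adjusted p = 0.0568).

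DUSP4 was higher at 30 than at 1 µg/cm2 in all 3 experiments, by 1.49, 2.11 and 1.51 times. It did not pass without the block, at a log2 fold-change of 0.70 (adjusted p = 0.312, SE 0.40), and passed with it, at 0.78 (adjusted p = 0.0305), where 15.6% of all genes were called. DUSP1 had a log2 fold-change of -0.27 (95% interval -0.66 to 0.12) between the concentrations. DUSP10 was called only without the 24-h libraries of experiment 2, at 0.64 (adjusted p = 0.00823) where 17.6% of all genes were called, or without its library at 30 µg/cm2, at 0.61 (adjusted p = 0.0273), among the alternatives run. Groups did not overlap for 4 members, DUSP2, DUSP4, DUSP5 and DUSP6, beside 21.6% of all genes.

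The repeated protocol gave a different set of values. After daily exposure to 1 µg/cm2, DUSP10 fell, and it was the only called member of 10, where 0.227% of all tested genes were called. DUSP10, a phosphatase of JNK and p38, was at 12.2, 10.1 and 13.4 CPM in the controls and at 5.57, 4.65 and 4.74 CPM after daily PM2.5. All treated libraries were below all controls, with ratios of 0.457, 0.462 and 0.354. The log2 fold-change was -1.25 (adjusted p = 0.0306, SE 0.21). Leaving out any 1 of the 6 libraries ended this call, with adjusted p-values of 0.107 to 0.227 and log2 fold-changes of -1.35 to -1.16, and these fits called 0 to 11 genes of all tested. With the experiment as a block it passed (adjusted p = 0.00321).

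DUSP8, which acts on JNK and p38, went the other way at a low level. The controls were at 0.266, 0.321 and 0.157 CPM, from 5 to 10 reads each, and the treated libraries at 1.17, 0.607 and 1.12 CPM, from 21 to 36 reads each. Groups did not overlap, and the ratios were 4.39, 1.89 and 7.16. The log2 fold-change of 1.94 (SE 0.43) missed the threshold (adjusted p = 0.0913), and with the block it was 1.91 and passed (adjusted p = 0.0156), in a fit that called 4.39% of all genes. DESeq2 also called it (adjusted p = 0.00573), where it called 1.43% of all genes.

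Members that rose or were lower at 24 h showed small differences here. DUSP5 was at 6.62 to 9.32 CPM in the controls and 10.3 to 11.0 CPM after daily PM2.5 (log2 fold-change 0.38, 95% interval -0.61 to 1.38), and DUSP6 at 5.21 to 6.23 and 7.13 to 10.4 CPM (0.50, -0.81 to 1.81). DUSP4 was at 40.7 to 45.9 and 32.4 to 37.1 CPM (-0.33, -1.20 to 0.53). None of these 3 passed, although their groups did not overlap. This was so for 5 of the 10 members and for 42.9% of all tested genes. DUSP1 had a log2 fold-change of -0.23 (-0.63 to 0.16) and DUSP2 of 0.38 (-1.37 to 2.12), with every DUSP2 library under 0.80 CPM. DUSP7, DUSP14 and DUSP16 had log2 fold-changes from -0.05 to 0.17.

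**Figure D4:**
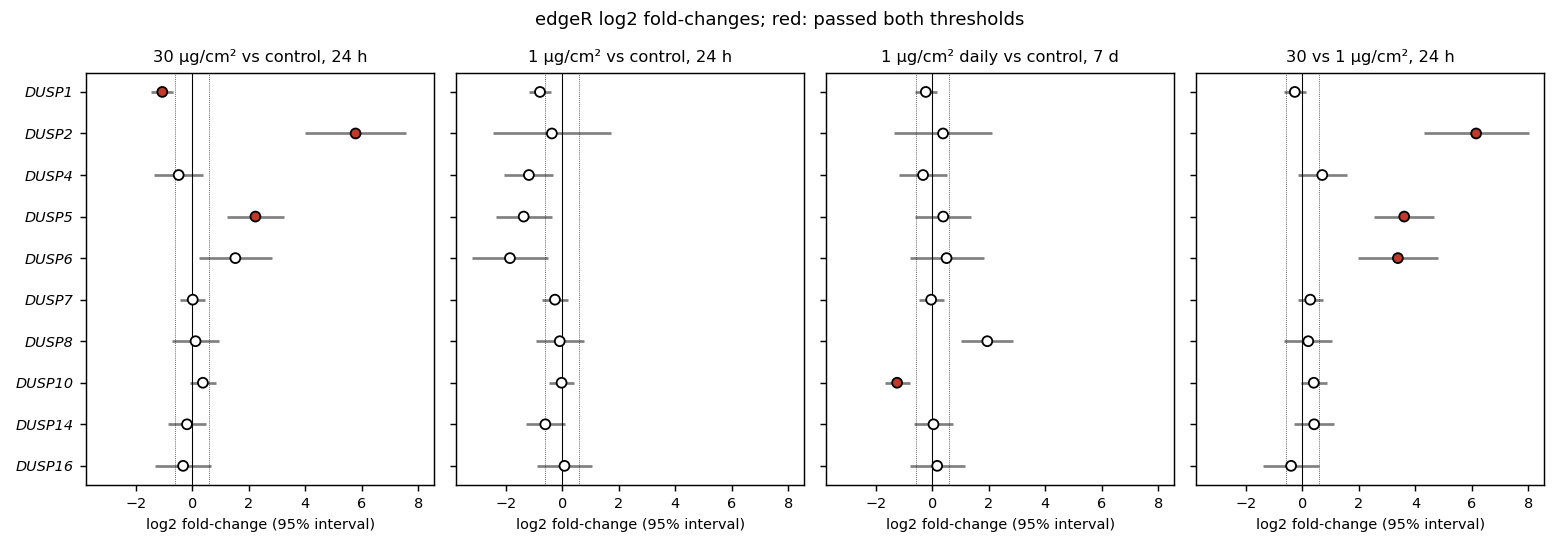
Log2 fold-changes of the 10 genes in 4 comparisons (edgeR, all 15 libraries in the fit), with 95% intervals as lines, dotted lines at the fold threshold of 0.6 and red points for genes past both thresholds. DUSP2 and DUSP5 are red and above 2 in both comparisons of 30 µg/cm2, and DUSP10 is the only red point after daily exposure, at -1.25.

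The response to 1 µg/cm2 after daily exposure was then compared with that at 24 h in one contrast. No member was called, and by edgeR's quasi-likelihood test no gene was called either (0%), although 5 of the 10 members and 7.07% of all genes had an unadjusted p-value under 0.05. The difference of the 2 log2 fold-changes was 2.36 for DUSP6 (adjusted p = 0.598, SE 0.87), 2.04 for DUSP8 (adjusted p = 0.444, SE 0.59), 1.75 for DUSP5 (adjusted p = 0.601, SE 0.65), 0.56 for DUSP1 (adjusted p = 0.705, SE 0.26) and -1.22 for DUSP10 (adjusted p = 0.377, SE 0.30). With the block DUSP5 passed at 1.57 (adjusted p = 0.0496), where 1.03% of all genes were called, and DESeq2 called 66 genes (0.375%), DUSP10 among them (adjusted p = 0.027). Without the 24-h libraries of experiment 2, DUSP1, DUSP4, DUSP5, DUSP6, DUSP8 and DUSP10 were called, where 10% of all genes were called. Without the 24-h control of experiment 2 alone, DUSP6 was called at 2.88 (adjusted p = 0.0266), among 68 of all tested genes. That fit kept the 1 µg/cm2 library of experiment 2 without its own control.

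Vehicle controls of the 2 protocols differed from each other in 5 members, where 21.9% of all tested genes were called. These controls differ in time in culture, in plating density, in the daily washes and in the experiment, which cannot be told apart. In the repeated protocol DUSP5 was lower, with a log2 fold-change of -1.90 (adjusted p = 0.00854, SE 0.47), as were DUSP8 at -1.72 (adjusted p = 0.00966, SE 0.44), DUSP4 at -1.44 (adjusted p = 0.017, SE 0.41) and DUSP1 at -0.88 (adjusted p = 0.00297, SE 0.18). For DUSP5 the 24-h controls were at 37.9, 9.42 and 44.1 CPM in experiments 1, 2 and 3, and those of the repeated protocol at 6.62 to 9.32 CPM. The DUSP5 difference thus lay mainly in experiments 1 and 3, and experiment 2 was near the repeated protocol. DUSP10 was higher, at 10.1 to 13.4 CPM against at most 4.57 CPM (1.49, adjusted p = 0.000215, SE 0.21). After daily PM2.5, DUSP10 was at 4.65 to 5.57 CPM and DUSP8 at 0.607 to 1.17 CPM, beside at most 4.57 and 1.13 CPM in the 24-h controls.

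DUSP4 in the control of 24-h experiment 2, at 35.2 CPM, was below the 3 controls of the repeated protocol at 40.7 to 45.9 CPM, and leaving out any of 4 libraries ended the call of DUSP4 (adjusted p = 0.0542 to 0.0804): the controls of experiments 1 and 3 at 24 h and of experiments 1 and 2 in the repeated protocol. DUSP6 missed the test at -1.59 (adjusted p = 0.0678) and passed without the 24-h control of experiment 2, at -2.11 (adjusted p = 0.000691). With all libraries kept, DESeq2 called DUSP6 (adjusted p = 0.0248), as did edgeR's likelihood ratio test (adjusted p = 0.0351). Groups of 4 members, DUSP1, DUSP5, DUSP8 and DUSP10, did not overlap, beside 52.3% of all genes.

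The kinases that these phosphatases act on were compared next. None of the 10 MAP kinase genes was called with 30 µg/cm2 for 24 h, and their median log2 fold-change was -0.02. Of the 7 MAP2 kinases that activate them, MAP2K6, an activator of p38, fell (-1.58, adjusted p = 0.0194, SE 0.39), which is 14.3% of this list beside 8.07% of all genes. Of 22 MAP3 kinases, MAP3K8, an activator of the ERK cascade, fell (-0.97, adjusted p = 0.0236, SE 0.25), or 4.55% of the list. None of 5 tested phosphatases of other families that act on MAPKs was called. Among 13 other dual-specificity phosphatases, DUSP15 was the 1 called (7.69%), and it rose (2.79, adjusted p = 0.000663, SE 0.41) from 0.692, 1.79 and 0.815 CPM to 7.92, 6.97 and 7.42 CPM.

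Genes known to be transcribed downstream of ERK were examined in the same way. Of 14 ERK output and feedback genes, 2 (14.3%) rose with 30 µg/cm2 against the control and none fell, beside 8.07% of all genes called in either direction. EGR1, an immediate early transcription factor, rose by a log2 fold-change of 5.09 (adjusted p = 2.41e-05, SE 0.46), and IER3, an early response gene, by 2.59 (adjusted p = 0.0256, SE 0.67). With the block 7 of the 14 passed, where 15.2% of all genes were called. EGR1 was at 27.9, 17.6 and 25.4 CPM in the controls and 1072, 230 and 1112 CPM after treatment. Of 8 AP-1 subunits, 4 (50%) rose and none fell, beside the same 8.07% of all genes. FOSL1 rose by 2.12, FOSB by 1.70, FOS by 1.38 and JUNB by 1.06, and 6 of the 8 passed with the block. IER3 was at 2.77, 0.188 and 2.55 CPM in the controls and 13.3, 5.65 and 14.9 CPM after treatment, and FOSL1 at 34.8, 8.76 and 37.4 CPM and 133, 84.3 and 135 CPM, so both were higher with treatment in every experiment and low in the control of experiment 2. The median log2 fold-change was 0.50 for the 14 ERK genes and 1.14 for the 8 AP-1 genes, beside 0.03 over all genes, and 4 of the 14 (SPRY2, ETV1, CCND1 and SPRY1) had a log2 fold-change below 0.

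Between 30 and 1 µg/cm2, 6 of the 14 ERK genes were higher and none lower, beside 3.62% of all genes called higher, and 12 passed with the block, where 15.6% of all genes were called. The 4 with the largest log2 fold-changes were EGR1 at 5.06, the ERK pathway inhibitor SPRY4 at 3.25, IER3 at 2.92 and the transcription factor ETV4 at 2.36. The same count for AP-1 was 4 of 8, FOSL1 at 2.85, FOS at 2.26, FOSB at 1.71 and JUNB at 0.71. MAP2K3 was higher (1.02) and MAP2K6 lower (-1.74), MAP3K8 was lower (-1.05), DUSP15 was higher (2.17), and no MAP kinase gene was called. With 1 µg/cm2, at 24 h or daily, no gene of these lists was called without the block, and with it 1 ERK gene was called at 24 h, where 0.42% of all genes were called, and 1 MAP2 kinase and 2 AP-1 genes after daily exposure, where the share was 4.39%. The median of the 14 ERK genes was -0.65 with 1 µg/cm2 for 24 h and 0.24 after daily exposure.

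Between the controls, where 21.9% of all genes were called, 4 of the 14 ERK genes were lower in the repeated protocol and none higher, namely PHLDA1 at -2.58, CCND1 at -2.58, IER3 at -2.42 and SPRY2 at -1.03, as was FOSL1 at -1.78 among AP-1 genes. Of the MAP kinases, 2 were higher there, MAPK10 at 1.84 and MAPK13 at 0.89, and of the MAP2 kinases MAP2K3 was lower at -1.73. Of 22 MAP3 kinases, 4 were higher and 1 lower, MAP3K10 at 1.06, TAOK3 at 1.06, MAP3K8 at -1.04 and MAP3K2 at 0.99 among them. Of 13 other dual-specificity phosphatases, 3 were higher and 1 lower, DUSP13 at 1.97, DUSP15 at 1.80, DUSP9 at 0.96 and DUSP23 at -1.29. Of 5 phosphatases of other families, PPM1A was higher at 0.70 and PPP2CA lower at -0.62. The 24-h control of experiment 2 was near the controls of the repeated protocol in several of these genes. CCND1 was at 147, 12.2 and 135 CPM at 24 h and 15.1 to 17.9 CPM in the repeated protocol, and PHLDA1 at 68.0, 10.6 and 72.6 CPM and 7.46 to 9.77 CPM. Like DUSP6, SPRY4 was low in the 24-h control of experiment 2, at 1.65 CPM against 18.2 and 17.5 CPM in experiments 1 and 3.

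**Figure D5:**
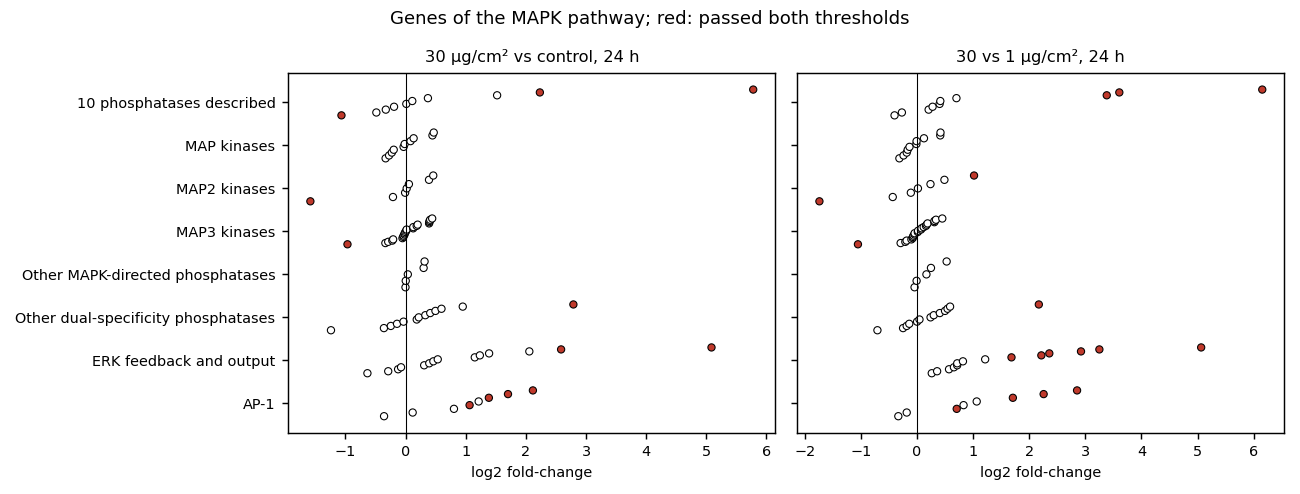
Log2 fold-change of every tested gene in 7 lists of the MAPK pathway and of the 10 phosphatases, at 24 h with 30 µg/cm2 against vehicle control (left) and against 1 µg/cm2 (right), in red where both thresholds were passed. No MAP kinase is red, and all red points of the ERK output and AP-1 rows lie above 0.

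Across the 15 libraries, members fell along different patterns. As a description, Pearson correlations of log2(CPM + 0.5) over the 15 libraries were taken, which share conditions and experiments. DUSP5 and DUSP6 were the most alike pair of members (r = 0.93). Among members DUSP4 was closest to DUSP7 (0.89) and DUSP2 to DUSP5 (0.87). DUSP10 and DUSP8 were the least alike (-0.68). Among all tested genes with a symbol, DUSP2 was most like CSRNP1 (0.98), DUSP4 most like CCN2 (0.98) and DUSP5 most like FOSL1 (0.98). In the same search DUSP6 was most like UTP4 (0.97), DUSP10 most like ADM (0.95) and DUSP7 most like FLI1 (0.95). DUSP16 was most like GABRR2 (0.94), DUSP1 most like PAX9 (0.91) and DUSP14 most like MSH6 (0.84).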

How the data were processed

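The authors deposited one table of raw counts per gene, without normalization, for 15 libraries. Per the study's methods, STAR 2.5.3 was used to align single-end reads to GRCh38 and featureCounts to count them. The submitters' processing notes name build hg19, but of 57437 gene identifiers shared with GENCODE release 44, 57370 overlap that gene's position on GRCh38, so coordinates are given as GRCh38. The annotation and the strand setting are not given in the sources used here, so reads from overlapping opposite-strand genes cannot be separated.

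Groups came from the sample labels. Counts were fitted in R 4.3.3 with edgeR 4.0.16 (TMM, filterByExpr by group, glmQLFit in legacy mode, one mean per group, all 15 libraries), and p-values were Benjamini-Hochberg adjusted over the 17599 tested genes. Genes were called where the adjusted p-value was below 0.05 and the log2 fold-change 0.6 or more in either direction. SEs are the log2 fold-change divided by the root of F. CPM is per 1000000 counts on tested genes, and intervals are 95%. The fits were also tested on simulated data. That test does not show how they perform on these libraries, where an experiment stood apart from the others.

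The series text gives the last number of a sample name as the experimental batch. Deviations from group means correlated at 0.27 to 0.78 between libraries of the same 24-h experiment and at 0.18 to 0.27 in the repeated protocol, and at -0.77 to 0.58 and -0.20 to -0.05 between different experiments. Deviations cancel out within a group, which by itself lowers the values between different experiments where those within an experiment are positive. The number was used as a replicate block, separately in each protocol, in an alternative to the main fit.

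The 10 members and the pathway lists were chosen with earlier results of these data known. All members are named, and of each list the called genes, at most the 4 with the largest absolute log2 fold-change, with the gene with a symbol most correlated with each member above a mean of 1 CPM. Genes outside this rule that are named for their levels (SPRY4 in the controls and the markers) were chosen from the same lists. Alternatives were RLE size factors, no filter, only the groups compared, the block, DESeq2 1.42.0, the likelihood ratio test, each library left out, and no 24-h experiment 2. A fit with 1 library left out keeps the other libraries of the same experiment.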

Additional observations from a re-analysis of the deposited data

How the results depend on the processing

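As reported, 3, 0, 1 and 3 members were called for 30 µg/cm2 against control, 1 µg/cm2 against control, daily 1 µg/cm2 against control and 30 against 1 µg/cm2, with 1420, 11, 40 and 1379 of all genes. The difference between the responses to 1 µg/cm2 had 0 members and 0 genes. Without the 24-h libraries of experiment 2, 6 members (3389 genes) were called for 30 µg/cm2 against control, 4 (378) for 1 µg/cm2, and 6 (1762) for the difference of responses, with 3091 genes for 30 against 1 µg/cm2. With the experiment as a replicate block, the genes called were 2681 for 30 µg/cm2, 74 for 1 µg/cm2, 773 after daily exposure with 2 members, 2737 for 30 against 1 µg/cm2, and 181 for the difference of responses with 1 member. The block changed no other member's call than those given with it above, and it was not fitted for the controls of both protocols, whose numbers were taken to mark separate experiments in each protocol. Deviations of 24-h and repeated libraries correlated at -0.33 to 0.22 (18 pairs) where they shared a number and at -0.24 to 0.31 (36 pairs) where they did not.

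Fitting only the groups compared gave 1 member and 344 genes for 30 µg/cm2, 2 genes for 1 µg/cm2, 2 members and 1044 genes after daily exposure, 123 genes for 30 against 1 µg/cm2, and 1 gene for the difference of responses. Without the filter there were 4 members and 38 genes for 1 µg/cm2, 92 genes after daily exposure, and 20 genes for the difference; DUSP6 was then also called for 30 µg/cm2 against control (adjusted p = 0.00553) and between the controls (adjusted p = 0.00171). DESeq2 called 1 member and 39 genes for 1 µg/cm2, 2 and 251 after daily exposure, and 1 and 66 for the difference. The likelihood ratio test called 1 and 34, 2 and 194, and 13 genes. The cause of these shifts was not tested.

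With 1 library left out at a time, members called ranged from 0 to 3 for 1 µg/cm2 (3 without the control of experiment 2), were 0 after daily exposure, and ranged from 0 to 1 for the difference of responses. All genes called ranged from 802 (without 30 µg/cm2 in experiment 1) to 2691 (without it in experiment 2) for 30 µg/cm2, from 4 to 55 (without the control of experiment 2) for 1 µg/cm2, from 0 to 11 after daily exposure, from 716 (without 30 µg/cm2 in experiment 3) to 2700 (without it in experiment 2) for 30 against 1 µg/cm2, and from 0 to 68 for the difference.

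Over the settings other than a left-out library, 359 log2 fold-changes of members kept their direction and call, 33 passed only under the other setting, 3 lost the call and 5 changed sign. Signs changed for small log2 fold-changes that were not called. DUSP7 with 30 µg/cm2 was -0.00047 with RLE, -0.00054 with DESeq2 and -0.13 without experiment 2, DUSP10 with 1 µg/cm2 was 0.0090 and DUSP16 between the controls -0.19 without experiment 2. With 1 library left out, values for 30 µg/cm2 ranged from -0.22 to 0.16 for DUSP7, from -0.090 to 0.37 for DUSP8 and from -0.64 to 0.044 for DUSP16. For 1 µg/cm2 they ranged from -0.48 to 0.16 for DUSP8, from -0.068 to 0.026 for DUSP10 and from -0.22 to 0.42 for DUSP16. After daily exposure the ranges were -0.013 to 0.74 for DUSP2, -0.088 to 0.046 for DUSP7 and -0.26 to 0.22 for DUSP14. Between the controls DUSP16 ranged from -0.18 to 0.29, and for the difference of responses from -0.25 to 0.38. Depth limits DUSP2 and DUSP8 most, whose lowest libraries held 2 and 5 reads.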
